A study of Mus musculus with 14 samples.

Results

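The *Elavl* genes encode the Hu proteins, and 3 of them, *Elavl1*, *Elavl2* and *Elavl3*, were taken by gene name from the spleen and ovary tables, or by Ensembl identifier where the spleen counts were low. They are 3 of 49315 genes in the spleen count table, and all 3 are also among the 18603 genes of the ovary table. Each library was made from the poly(A) RNA of 1 organ of 1 animal, with 4 libraries per genotype for the spleen and 3 per genotype for the ovary, and the genotypes were wild type and L2-fKO. L2-fKO mice (L2-cKO in the labels) carried 2 recombined *Zfp36l2* alleles in which exon 2 had been flanked by loxP sites, and Cre was driven by the CMV promoter, which acts in the early embryo and therefore in all tissues. Wild-type littermates had both intact *Zfp36l2* alleles and carried the same Tg.CMV-Cre transgene. The animals were neonatal pups whose exact ages the labels do not give. The paper describes the spleens as 4 age-matched pairs and the ovaries as age-matched. The labels do not say which animals form a pair, so the main fits were unpaired. Spleens came from 2 females and 2 males in the wild type and from 1 female and 3 males in the L2-fKO, and L2-fKO spleen 3 and L2-fKO ovary 1 came from the same animal. The source of the spleen libraries is labelled as spleen organoid.

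Hu proteins bind uridine-rich and AU-rich elements (AREs) in 3′ untranslated regions (3′UTRs) and mostly stabilize the mRNAs they bind or promote their translation. HuR, the product of *Elavl1*, is made in nearly all cells, HuB (*Elavl2*) is made in neurons and in germ cells including oocytes, and HuC (*Elavl3*) is mainly neuronal. ZFP36L2, the protein deleted here, is a zinc finger protein that binds AREs and promotes the decay of the mRNAs that carry them, so it and the Hu proteins act in opposite directions on similar sequences. The comparison asks how *Elavl* mRNA levels differ when ZFP36L2 is absent.

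The 3′UTRs of all 3 members hold the 7-base ARE (UAUUUAU) that is known to bind ZFP36L2. The sites below are shown because they are the stretches through which an ARE-binding protein could act on these mRNAs. They were read from the GENCODE M21 transcripts (GRCm38), taking for each gene its longest annotated 3′UTR, and capitals mark UAUUUAU. All 3 genes lie on the minus strand. *Elavl2* (ENSMUSG00000008489, chr4:91250763-91400785) has 3 sites in a 3′UTR of 2477 nt, at chr4:91252710-91252716, chr4:91252689-91252695 and chr4:91250917-91250923, and each lies in the 3′UTR of all 6 annotated coding isoforms that have one. *Elavl3* (ENSMUSG00000003410, chr9:22015005-22052023) has 3 sites in a 3′UTR of 3498 nt, at chr9:22016036-22016042, chr9:22015913-22015919 and chr9:22015691-22015697, in 1 of 2 isoforms. *Elavl1* (ENSMUSG00000040028, chr8:4285382-4325413) has 8 sites in a 3′UTR of 4218 nt, in 1 of 2 isoforms, packed into 2 runs at chr8:4285777-4285805 and chr8:4285753-4285767.
Elavl2 site 1: uuuacauuuuUAUUUAUgaaguuacaa
Elavl2 site 2: uuacaaacagUAUUUAUuuuguaauuc
Elavl2 site 3: guaaggcuggUAUUUAUuugaaguugu
Elavl3 site 1: uguguuuaacUAUUUAUucuccuuguu
Elavl3 site 2: augccuaauuUAUUUAUacaaagggga
Elavl3 site 3: acaccgaaccUAUUUAUucuggugguu
Elavl1 sites 1 to 5: UAUUUAUUUAUUUAUUUAUuuuUAUUUAU
Elavl1 sites 6 to 8: UAUUUAUUUAUUUAU

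The members differed in how the motif was arranged. In *Elavl1* sites 1 to 4 and sites 6 to 8 overlapped one another, whereas in *Elavl2* and *Elavl3* no sites overlapped. The first 2 sites of *Elavl2* began at nt 524 and 545 of the 3′UTR, and site 3 began at nt 2317 and ended 154 nt before its end. The bases flanking the *Elavl2* sites, 10 on each side, were 55.0% to 80.0% A or U, against at most 65.0% for *Elavl3* and at least 80.0% for *Elavl1*. At least 1 UAUUUAU was present in 27.6% of the longest 3′UTRs of 21022 genes, and at least 3 in 4.13% of them. Among 3′UTRs within 20% of the length of its own, at least as many sites were found in 6.80% for *Elavl2*, 10.2% for *Elavl3* and 0.282% for *Elavl1*. The 5-base ARE (AUUUA), which is also contained in every UAUUUAU, occurred 15 times in *Elavl2*, 17 times in *Elavl1* and 8 times in *Elavl3*. The motif GAAA, to which HuB has been reported to bind, occurred 22 times in *Elavl2*, 34 times in *Elavl1* and 24 times in *Elavl3*, which is 8.88, 8.06 and 6.86 per 1000 nt, beside a median of 5.82 over all 3′UTRs. At least 1 AUUUA was present in 65.2% and at least 1 GAAA in 88.4% of all 3′UTRs. All motifs were searched on the transcribed strand alone. The 3′UTR of *Elavl2* was 66.6% A or U, that of *Elavl1* 58.2% and that of *Elavl3* 49.6%, beside a median of 56.6%.

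The deletion was visible in every L2-fKO library. The normalized count of *Zfp36l2* (reads scaled to a common library size) was 4362 to 7327 in wild-type spleens and 276 to 398 in L2-fKO spleens. Its log2 fold change there was -4.08 ± 0.21 (SE, edgeR quasi-likelihood test, adjusted p = 8.84e-06). In the ovary it was 4745 to 4906 in the wild type and 758 to 1011 in the L2-fKO, a log2 fold change of -2.40 ± 0.12 (limma, adjusted p = 5.78e-04). The remaining level in the L2-fKO was on average 5.93% of that in the wild type for the spleen and 19.1% for the ovary. These counts cover all exons, including what lies outside the loxP sites. The libraries held 39138010 to 45167464 counted reads in the spleen and 31052510 to 44270070 in the ovary. Among the spleens 3 wild-type libraries stood apart: the summed normalized count of 16 pancreatic acinar markers was 26487, 8073 and 23184 in wild-type spleens 1, 2 and 4, and 1253 to 2224 in the other 5.

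*Elavl2* mRNA rose in the L2-fKO spleen from near the limit of detection. The normalized counts in wild-type spleens 1 to 4 were 1.87, 2.02, 0.979 and 7.07. In L2-fKO spleens 1 to 4 they were 91.4, 74.8, 123.0 and 44.4. Every L2-fKO spleen was above every wild-type spleen, and the lowest L2-fKO value was 6.28 times the highest wild-type value. Among 16911 genes tested in the spleen, 9.83% had all 4 L2-fKO libraries above all 4 wild-type libraries, and the genotypes did not overlap in either direction for 20.3%. *Elavl2* passed the filter of at least 10 reads in at least 4 libraries through its L2-fKO libraries alone. Its lack of overlap therefore follows from its entry to the test and adds no support. The underlying reads were 2, 2, 1 and 7 in the wild type and 88, 68, 112 and 53 in the L2-fKO, so the wild-type level rests on 12 reads in all, against 321 in the L2-fKO. In wild-type spleens 1 to 3 it lay under the 3 reads that a count of 0 allows, so the size of the fold change and its place among other genes are loosely set. The mean normalized count was 2.98 ± 2.76 (SD, n = 4) in the wild type and 83.4 ± 32.8 (SD, n = 4) in the L2-fKO.

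The log2 fold change of *Elavl2* in the spleen was 4.75 ± 0.52 (SE), with a 95% interval of 3.59 to 5.92 and an adjusted p of 5.03e-04 (edgeR quasi-likelihood test, Benjamini-Hochberg adjustment over all genes tested). A gene was called where its log2 fold change was over 1 in size at an adjusted p under 0.05, and so *Elavl2* was called up, as were 2.9% of the genes tested, while 3.11% were called down. By the size of its fold change it stood at place 12 of the 490 genes called up. The exact two-sided permutation test over the 8 libraries gave p = 0.0286, the smallest that 4 against 4 can give. With under 10 reads of *Elavl2* in each wild-type spleen, passing the filter already set the groups apart, so this p was fixed in advance. The ratio of summed reads per total was 27.4, with an exact counting interval of 15.5 to 53.5 that covers counting error only. In RPKM (reads scaled to the length of the exons and the depth of the library) the level was 0.00815 ± 0.0072 in the wild type and 0.227 ± 0.069 in the L2-fKO (SD, n = 4), so it remained low. Of the genes tested, 25.9% had a lower mean normalized count in the L2-fKO spleen, against 0.071% in the wild type. The wild-type share is set low by the filter, which *Elavl2* passed through its L2-fKO libraries alone.

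The difference was present in both sexes. With under 10 reads of *Elavl2* in each wild-type spleen, passing the filter already set the genotypes apart within each sex. The separation by sex therefore adds no support. In male spleens the normalized counts of *Elavl2* were 2.02 and 7.07 in the wild type and 44.4 to 91.4 in the 3 L2-fKO libraries, and the fit on male libraries alone gave a log2 fold change of 3.92 ± 0.57 (edgeR, adjusted p = 0.00860). In female spleens they were 0.979 and 1.87 in the wild type and 123.0 in the single L2-fKO library. When wild-type spleens 1, 2 and 4, the libraries with pancreatic mRNA, were left out, only wild-type spleen 3 with 1 *Elavl2* read remained, and the log2 fold change was 6.22 ± 1.03 with an adjusted p of 0.0559 (edgeR). That fit takes the lone sample to vary like the L2-fKO group.

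*Elavl1* showed no difference in the spleen that passed the test. Its normalized counts in wild-type spleens 1 to 4 were 4474, 5915, 4157 and 5259. In L2-fKO spleens 1 to 4 they were 4940, 4876, 5117 and 3839. The groups overlapped, with means of 4951 ± 792 (SD, n = 4) in the wild type and 4693 ± 579 (SD, n = 4) in the L2-fKO. The log2 fold change was -0.08 ± 0.14 (SE, edgeR, adjusted p = 0.734), with a 95% interval of -0.38 to 0.22. Its sign turned to 0.01 when wild-type spleen 2 was left out, and it was -0.00019 without L2-fKO spleen 4. At this level, above that of 89.6% of the genes tested in the wild-type spleen, 4247 to 5867 reads per library stood behind the values.

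*Elavl3* was close to the limit of detection in all spleens. It had 2, 1, 6 and 6 reads in wild-type spleens 1 to 4. In L2-fKO spleens 1 to 4 it had 1, 2, 4 and 0 reads, which overlap the wild-type range. It was below the filter of at least 10 reads in at least 4 libraries and had no place in the spleen fit. Its mean normalized count was 3.70 ± 2.64 (SD, n = 4) in the wild type and 1.91 ± 1.88 (SD, n = 4) in the L2-fKO, a difference of -1.80 with p = 0.286 (exact two-sided permutation test). A change of *Elavl3* in the spleen was not detectable at this depth: the ratio of summed reads had an exact counting interval of 0.165 to 1.24.

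**Figure D1:**
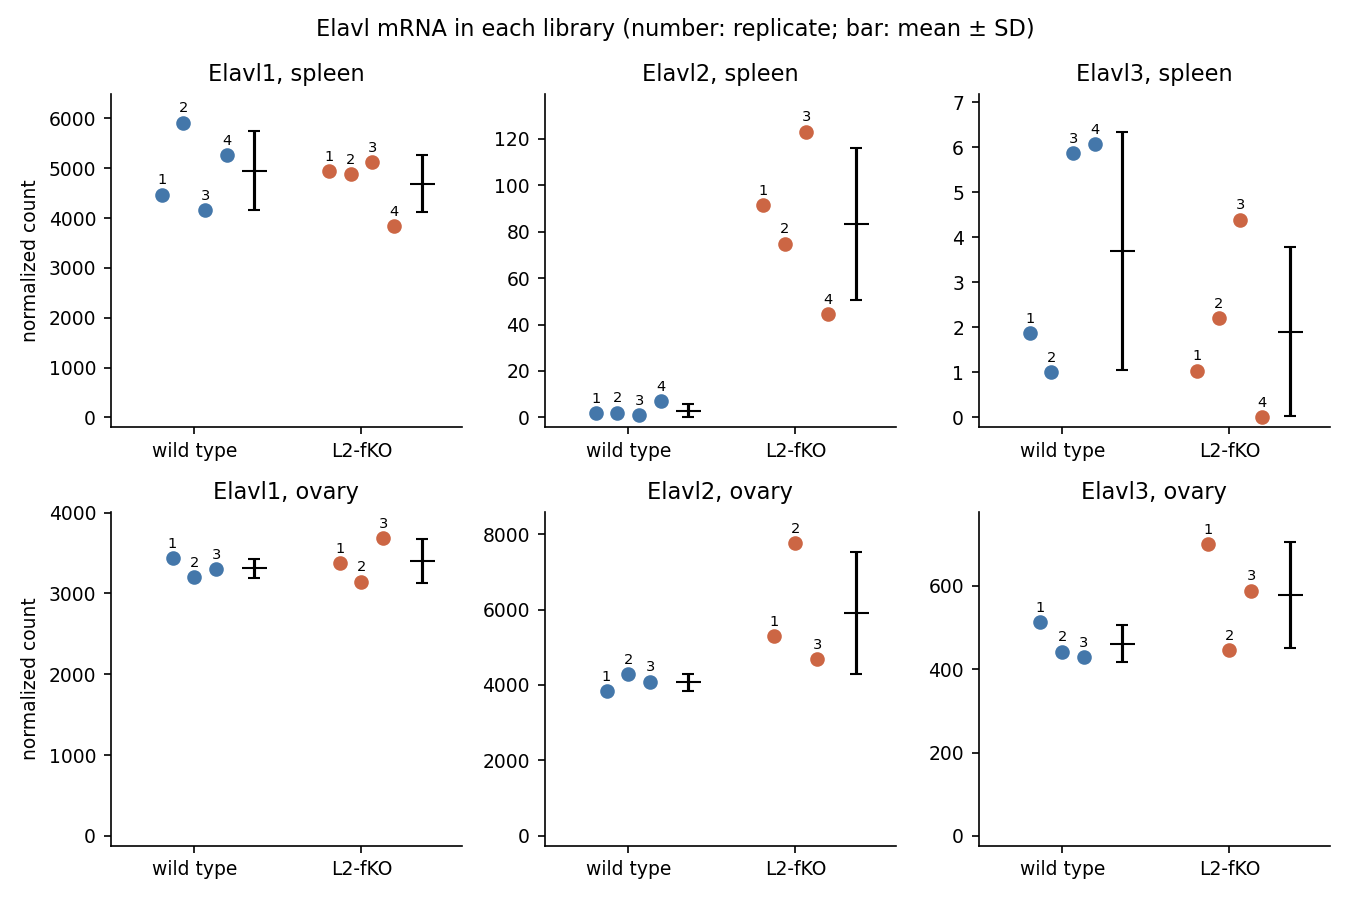
Normalized counts of *Elavl1*, *Elavl2* and *Elavl3* in each spleen (top) and ovary (bottom) library, on linear axes of different ranges. Points are libraries numbered by replicate, and bars give the mean ± SD of 4 spleens or 3 ovaries. In the spleen only *Elavl2* had no overlap between genotypes, with 0.979 to 7.07 in the wild type and 44.4 to 123.0 in the L2-fKO. It passed the filter through its L2-fKO libraries alone, so this adds no support. Of all genes tested in the spleen, 20.3% had no overlap in either direction.

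In the ovary all 3 members were well detected, and none passed the test between genotypes. Of the 18504 genes tested there, 0.73% were called up and 0.227% down, 0.957% in all, and 1.58% passed the adjusted p whatever their fold change. These shares rest on 177 calls, which became 32 to 46 without any 1 of the wild-type ovaries and 407 with DESeq2 on the recovered reads. *Elavl2* had normalized counts of 3840, 4289 and 4088 in wild-type ovaries 1 to 3. In L2-fKO ovaries 1 to 3 it had 5298, 7753 and 4685. The groups did not overlap, as was so with the L2-fKO above the wild type for 13.2% of all genes tested, and in either direction for 25.2%. The lowest L2-fKO value was 1.09 times the highest wild-type value, and L2-fKO ovary 2 was above the other two L2-fKO ovaries. The log2 fold change was 0.50 ± 0.17 (SE, limma on log2(value + 1), unadjusted p = 0.0202, adjusted p = 0.208), with a 95% interval of 0.10 to 0.91. The exact permutation test gave p = 0.1, the smallest that 3 against 3 can give. Without L2-fKO ovary 2 the log2 fold change was 0.29, with an adjusted p of 0.123 (limma).

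L2-fKO ovary 2 also stood apart in its cell markers. The summed normalized count of 14 granulosa and theca markers was 66045 in this library, against 121782 to 152558 in the other 5 ovaries, while 18 oocyte and germ cell markers summed to 338424, beside 323829 to 344506 in the wild type and 369633 and 377752 in the other two L2-fKO ovaries. It also had the highest sum of 18 neuron markers, at 39749, beside 31218 and 32561 in the other two L2-fKO ovaries and 27047 to 30305 in the wild type, so that these sums did not overlap between genotypes. Most of that sum was *Uchl1*, with mean normalized counts of 25470 in the wild type and 30770 in the L2-fKO (limma, adjusted p = 0.302). Its sum of 8 mast cell markers was 18741, against 9842 to 11887 in the other 5 ovaries. The median log2 fold change of the 7 mast cell markers tested was -0.96 (L2-fKO over wild type), opposite to that high sum. *Kit* is on both the mast cell and the oocyte list, so the sum is not a measure of mast cell RNA. Of the granulosa and theca, oocyte, neuron and mast cell lists 0 of 14, 0 of 18, 0 of 15 and 0 of 7 genes tested were called in the ovary (limma), with 1, 7, 1 and 5 at an unadjusted p under 0.05. Over all 18504 genes tested there, 3114 were under that limit. The part of these markers in the *Elavl2* values was not tested. In such bulk samples, fewer cells of a type and less RNA per cell cannot be told apart.

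*Elavl3* had normalized counts of 512, 442 and 428 in wild-type ovaries 1 to 3. In L2-fKO ovaries 1 to 3 it had 699, 445 and 588, of which the second lay within the wild-type range. The log2 fold change was 0.30 ± 0.17 (SE, limma, adjusted p = 0.427), with a 95% interval of -0.10 to 0.71. The annotated gene Gm49318 overlaps *Elavl3* on the same strand, so the assignment of reads to *Elavl3* is uncertain where they share exons. *Elavl1* had 3438, 3200 and 3300 in the wild type and 3375, 3144 and 3684 in the L2-fKO, and the genotypes overlapped. A log2 fold change of 0.04 ± 0.08 (SE, limma, adjusted p = 0.851) was found, with a 95% interval of -0.15 to 0.22, and it turned to -0.02 without L2-fKO ovary 3.

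The members followed a different order in the 2 organs. Levels between genes were compared in RPKM, and spleen and ovary were processed in separate tables. In wild-type ovaries *Elavl2* came first at 13.2 ± 0.905 (SD, n = 3), *Elavl1* next at 8.64 ± 0.251 and *Elavl3* last at 1.81 ± 0.140, with no overlap between neighbours. In wild-type spleens *Elavl1* came first at 11.1 ± 1.39 (SD, n = 4), and *Elavl3* at 0.0125 ± 0.0089 and *Elavl2* at 0.00815 ± 0.0072 did not differ beyond their spread. *Elavl1* made up 99.7% to 99.9% of the summed level of the 3 members in wild-type spleens and 97.0% to 98.6% in L2-fKO spleens. The share of *Elavl2* in that sum was 0.0293% to 0.167% in wild-type spleens and 1.42% to 2.91% in L2-fKO spleens. In the ovary *Elavl2* made up 53.2% to 58.0% of the sum in the wild type and 56.1% to 71.7% in the L2-fKO.

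**Figure D2:**
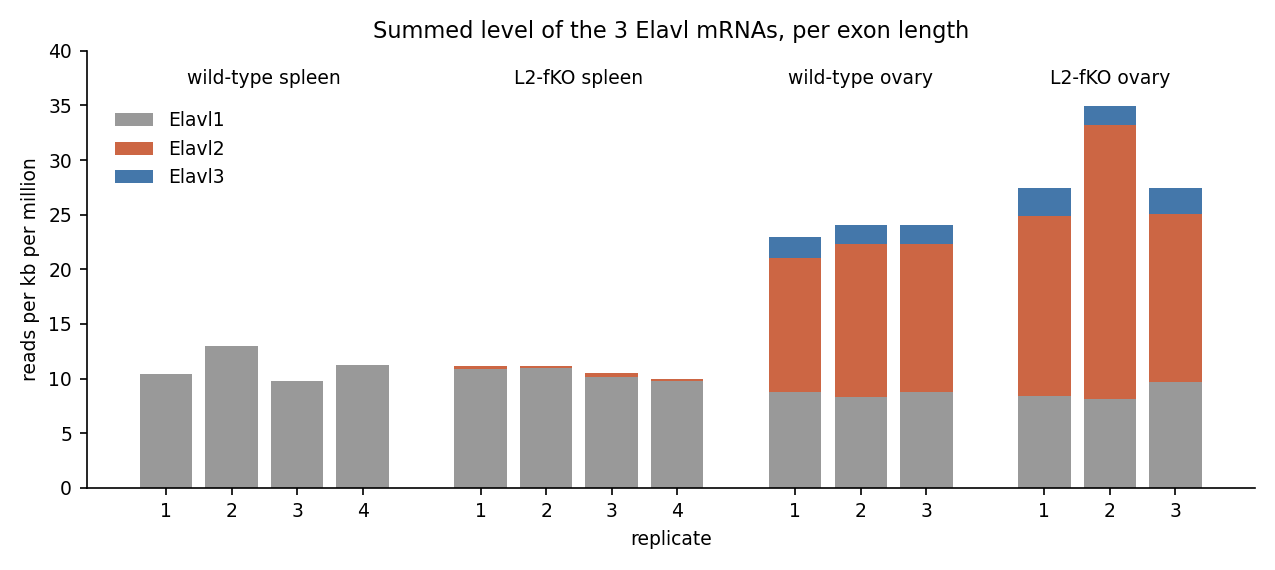
Stacked levels of the 3 *Elavl* mRNAs in each library, in RPKM (reads scaled to exon length and library depth). *Elavl1* fills almost the whole bar in the spleen, with the *Elavl2* band of L2-fKO spleens at 1.42% to 2.91% of the sum, while *Elavl2* is the largest part in each ovary.

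The effect of the genotype on *Elavl2* differed between the organs. The difference of the log2 fold changes, spleen minus ovary, was 4.03 ± 0.57 (SE, limma on all 14 libraries, adjusted p = 9.20e-04), with a 95% interval of 2.81 to 5.25. Of 18550 genes tested for this difference, 1.37% were called above 0 and 2.24% below 0, 3.61% in all, beside 5.68% that passed the adjusted p alone, and *Elavl2* stood at place 10 of these 255. The difference was 2.94 with a pseudocount of 5, 4.24 with edgeR on the reads of both organs, 3.75 without the animal that gave both organs and 5.20 in female libraries alone, and it was called each time. The female fit has 1 L2-fKO spleen, which is taken to vary like the other groups. For *Elavl1* it was -0.11 ± 0.18 (SE, limma, adjusted p = 0.789), with a 95% interval of -0.49 to 0.28. For *Elavl3* it was -1.05 ± 0.75 (SE, limma, adjusted p = 0.458), with an interval of -2.65 to 0.54 whose width goes with the 0 to 6 reads per spleen.

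**Figure D3:**
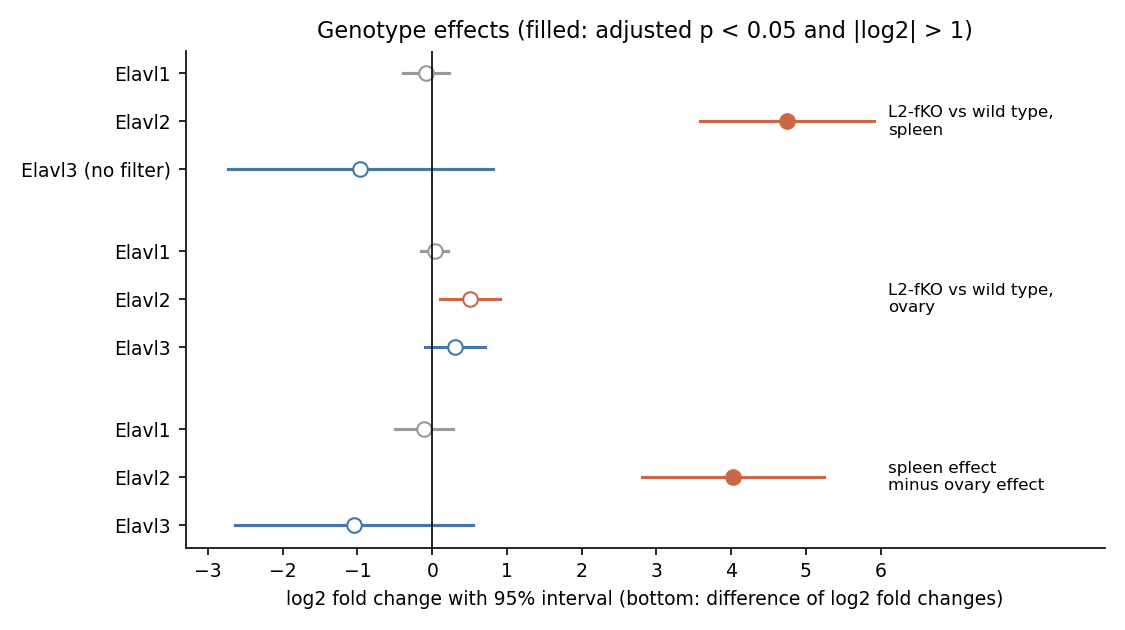
Log2 fold changes of the L2-fKO over the wild type in the spleen and ovary, and the spleen effect minus the ovary effect, each with its 95% interval. Filled points are over 1 in size at an adjusted p under 0.05, and *Elavl3* in the spleen is from the fit with no filter (-0.96). The *Elavl2* intervals of 3.59 to 5.92 in the spleen and 2.81 to 5.25 for the difference lie far from 0, and all *Elavl1* intervals include 0.

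All 3 members carry at least 3 UAUUUAU sites, and of all genes with that many, most were not called. In the spleen 26 of 555 such genes were called up (4.68%) and 11 were called down (1.98%), with a median log2 fold change of 0.07. Of the 9979 genes with a 3′UTR and no site, 296 were called up (2.97%) and 325 down (3.26%), with a median of -0.03. The shares did not follow the number of sites in order: with 1 site 2.10% were called up and 2.35% down, and with 2 sites 28 and 22 of 933 were. In the ovary 9 of 604 genes with at least 3 sites were called up (1.49%) and 1 down (0.166%), beside 68 (0.625%) and 30 (0.276%) of 10885 with none. With 1 and 2 sites 0.616% and 0.402% were called up there. These counts were chosen after the member values were seen and carry no test.

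The genes around *Elavl2* gave little signal in the spleen. The nearest annotated protein-coding genes are *Zfp352* at 1025 kb and *Dmrta1* at 1556 kb on one side and *Izumo3* at 744 kb and *Gm12666* at 790 kb on the other. None had more than 4 reads in any spleen, and none passed the filter there. In the ovary *Dmrta1* rose, with a log2 fold change of 0.43 (limma, adjusted p = 0.0404) that lay within the fold limit, and the other 3 are not among the listed ovary genes.

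The genes whose level ran most closely with a member were found by Pearson's r of log2(normalized count + 1), as a description without a test. Over the 8 spleens, among 13478 genes with a mean of at least 50, those most like *Elavl2* were *Shisa6* (r = 0.983), *Tubb3* (r = 0.982) and *Acadsb* (r = 0.981). The 8 points fall into the 2 genotype groups, so any gene that was higher in the L2-fKO is favoured. These 3 genes rose in the L2-fKO spleen with log2 fold changes of 1.72, 2.13 and 1.17 (edgeR, adjusted p = 0.00217, 2.03e-04 and 3.56e-04). *Tubb3* encodes a tubulin typical of neurons and *Acadsb* a mitochondrial acyl-CoA dehydrogenase. Most like *Elavl1* in the spleen were *Eif3g*, a translation initiation factor subunit (r = 0.991), *Sfr1* (r = 0.986) and *Mrpl35* (r = 0.982), and their log2 fold changes lay between -0.07 and -0.05. Over the 6 ovaries the genes most like *Elavl2* were *Pcdh15*, *Trim24* and *Arih2* (r = 0.999, 0.999 and 0.998), those most like *Elavl3* were *Car13*, *Ms4a4d* and *Gm19757* (r = 0.993, 0.992 and 0.990), and those most like *Elavl1* were *Osr1*, *R74862* and *Adprm* (r = 0.995, 0.991 and 0.991). None of these 9 passed the test in the ovary.

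Of other genes for proteins that bind AU-rich or uridine-rich RNA, 1 was called in the spleen besides the deleted *Zfp36l2*. Of 30 such genes tested in the spleen, *Zfp36l2* included, 1 was called up and 1 down, beside 6.01% of all genes called in either direction. The one called down was the deleted *Zfp36l2*, a call that follows from the deletion. The one called up was *Igf2bp1*, an mRNA-binding protein of embryonic tissues, with normalized counts of 7.06 to 12.7 in the wild type and 17.7 to 41.0 in the L2-fKO and a log2 fold change of 1.39 ± 0.35 (SE, edgeR, adjusted p = 0.0292). This call was lost without wild-type spleen 2, wild-type spleen 4 or L2-fKO spleen 2, with log2 fold changes of 1.24, 1.37 and 1.33, and also with sex in the fit (1.39, adjusted p = 0.0541) and without wild-type spleens 1, 2 and 4 (1.11, adjusted p = 0.471). *Rc3h2*, which encodes the decay factor Roquin-2, fell by 0.46 on the log2 scale (edgeR, adjusted p = 0.0296), within the fold limit. An adjusted p under 0.05 alone was reached by 13.4% of all genes tested in the spleen. The median log2 fold change of the list was -0.01, beside -0.02 over all genes tested. An unadjusted p under 0.05 was found for 6 of the 30 in the spleen (edgeR) and 7 of 31 in the ovary (limma), where *Zfp36l2* alone was called. Over all genes tested it was found for 4910 of 16911 in the spleen and 3114 of 18504 in the ovary. The summed normalized count of the list, *Zfp36l2* included, was 311578 to 320748 in wild-type ovaries and 274525 to 307234 in L2-fKO ovaries, without overlap. The deleted *Zfp36l2* was at 4745 to 4906 and 758 to 1011 within these sums, and L2-fKO ovary 2 held the lowest sum, 274525. Among single genes tested in the ovary, 25.2% had no overlap between genotypes in either direction. Whether the other genes of the list differ as a set was not tested.

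Of 11 other neuronal RNA-binding proteins tested in the spleen 0 were called up and 1 down, beside 2.9% and 3.11% of all genes. *Ptbp2*, a neuronal splicing repressor, was the one called down, from 712 to 1021 in the wild type to 360 to 488 in the L2-fKO, with a log2 fold change of -1.05 ± 0.16 (SE, edgeR, adjusted p = 0.00301). Its log2 fold change was -0.93 without wild-type spleen 3, -0.95 with sex in the fit and -0.94 in male spleens alone, all within the fold limit. *Cpeb3*, a regulator of translation, fell by 0.60 on the log2 scale (edgeR, adjusted p = 0.0487). The list's median was -0.12. In the ovary 0 of 15 were called by limma, edgeR or DESeq2. In limma 3 had an unadjusted p under 0.05, beside 3114 of all 18504 genes, and the median was -0.0032, beside -0.0042 over all genes.

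Among mRNAs known from the literature as HuR targets, 23 were tested in the spleen and 2 were called up, beside 2.9% of all genes. *Cdkn1a*, the cell cycle inhibitor p21, had normalized counts of 323 to 521 in the wild type and 1074 to 2108 in the L2-fKO, with a log2 fold change of 2.02 ± 0.22 (SE, edgeR, adjusted p = 4.62e-04). *Il6*, an inflammatory cytokine, was low throughout, at 1.96 to 5.05 in the wild type and 10.1 to 25.3 in the L2-fKO, with a log2 fold change of 1.97 ± 0.43 (SE, edgeR, adjusted p = 0.0159). Its wild-type counts lay under the filter of 10, so it was tested only because of its L2-fKO libraries. In male spleens alone *Il6* was not called (1.34, adjusted p = 0.0999), nor, without wild-type spleens 1, 2 and 4, were *Cdkn1a* (2.33, adjusted p = 0.0623) and *Il6* (2.92, adjusted p = 0.198). *Vegfa* and *Hif1a*, of the response to low oxygen, rose by less than the fold limit, with log2 fold changes of 0.89 and 0.78 (edgeR, adjusted p = 0.0347 and 0.00304). The other 19 did not pass the test, and the median of the list was 0.0063. Of 11 neuronal Hu targets tested in the spleen 0 were called by edgeR or DESeq2. In edgeR 5 had an unadjusted p under 0.05, beside 4910 of all 16911 genes. *Mapt*, which encodes tau, fell by 0.98 on the log2 scale (edgeR, adjusted p = 0.0286), just within the fold limit, and the median was -0.10. In the ovary 0 of 21 HuR targets and 0 of 13 neuronal Hu targets were called by limma, edgeR or DESeq2, with medians of 0.00059 and 0.10. In limma 4 and 0 of them had an unadjusted p under 0.05, beside 3114 of all 18504 genes.

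**Figure D4:**
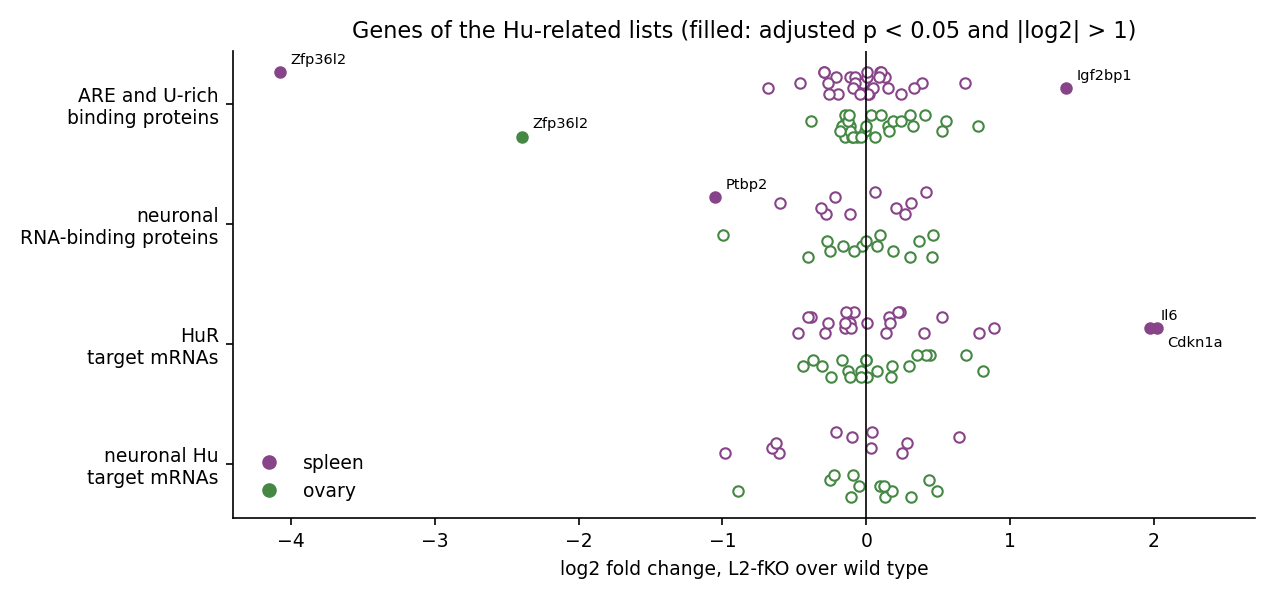
Log2 fold changes of each tested gene in 4 lists related to the Hu proteins, spleen above ovary within each list. Filled points passed an adjusted p of 0.05 and an absolute log2 fold change of 1: *Zfp36l2* in both organs, and *Igf2bp1*, *Ptbp2*, *Cdkn1a* and *Il6* in the spleen.

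Markers of the cells that make *Elavl2* elsewhere were measured beside it. Of 18 neuron markers 9 were tested in the spleen, and *Tubb3* alone was called, with normalized counts of 67.5 to 107 in the wild type and 330 to 494 in the L2-fKO. The list's summed level was 625 to 1013 in the wild type and 1106 to 1297 in the L2-fKO. Much of that rise was *Tubb3*, with means of 95.1 and 419, and the median log2 fold change of the 9 was -0.099. *Snap25*, *Th* and *Chrna3* were at 0 in all 4 L2-fKO spleens, though not in every wild-type spleen. Of 18 oocyte and germ cell markers 4 were tested, and 2 were called, both down: the germ cell helicase *Ddx4* (log2 fold change -2.04, edgeR, adjusted p = 0.00144) and the receptor *Kit* (-1.46, adjusted p = 8.32e-04). The list's sum was 2539 to 3025 in the wild type and 837 to 1365 in the L2-fKO, and *Figla* and *Nlrp14* were at 0 in every spleen. *Ddx4* was a small part of that sum, at 94.4 to 189 in the wild type, and *Kit* is also on the mast cell list. The fall of the sum is therefore not a measure of germ cell RNA. Of 16 pancreatic endocrine markers 0 of 2 tested were called, with sums of 50.9 to 161 and 47.8 to 116. Of 8 glia markers 1 of 6 tested was called, down, with sums of 4849 to 6977 in the wild type and 3258 to 4919 in the L2-fKO.

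Blood cell markers moved in the same spleens. All 9 megakaryocyte markers and all 8 neutrophil markers were called down, with summed levels of 25592 to 51290 in the wild type and 2136 to 3220 in the L2-fKO for the first and of 162356 to 261111 and 10604 to 59470 for the second. Of 8 mast cell markers 6 were called up and 1 down, with sums of 3385 to 4633 and 3237 to 15355. The one called down was *Kit*, counted above among the oocyte and germ cell markers as well. Of 10 fibroblast and stroma markers 3 were called up, with sums of 52850 to 61092 and 65452 to 83908. Of 6 pancreatic acinar markers tested 5 were called down. Of 8 granulosa and theca markers tested, 2 passed the adjusted p downward, 1 of them called, and 1 passed it upward within the fold limit. The median log2 fold change of these 8 was 0.20. The sum of that list was higher in every L2-fKO spleen, at 7413 to 8868 in the wild type and 11217 to 12942 in the L2-fKO. None of the B cell, T cell and erythroid markers was called in the spleen (edgeR). An unadjusted p under 0.05 was found for 0 of 8, 0 of 8 and 1 of 10, beside 4910 of all 16911 genes tested. In the ovary 1 T cell marker was called up and 1 pancreatic endocrine marker down, and the other marker lists had 0 calls (limma), with at most 7 genes of a list at an unadjusted p under 0.05. Over all 18504 genes tested there, 3114 were under that limit. The part of these markers in the *Elavl2* difference was not tested.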

How the data were processed

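Spleen and ovary poly(A) libraries were prepared with NEBNext Ultra II. The authors trimmed reads (Trimmomatic 0.36), mapped them to GRCm38 (STAR 2.5.2b) and counted unique exonic reads by strand (featureCounts, Subread 1.5.2). They deposited a spleen count table and, for both organs, tables of normalized signal values (counts divided by 1 size factor per library). For the ovary the deposited normalized signal was used here, and its whole reads were recovered (100.0% of values within 0.001 reads). The authors' own comparison columns (DESeq2 fold changes and p-values) were not used. Members and lists were chosen with earlier results of these data known.

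Spleen counts were tested with edgeR 4.0.16 (quasi-likelihood, TMM) for genes that reached 10 counts in 4 or more libraries, with SE taken as |log2 fold change| divided by the root of F. Ovary signal was tested with limma 3.58.1 on log2(value + 1) for values of at least 10 in at least 3 libraries, and the difference between organs likewise over both tables. P-values were adjusted by Benjamini-Hochberg over all genes tested. Calls needed an adjusted p under 0.05 and a log2 fold change over 1 in size. The fits were tested on simulated data. R 4.3.3, DESeq2 1.42.0 (alternatives), Python 3.11.15 and scipy 1.17.1 were used. Gene symbols were matched for 48970 of 49315 identifiers. Of each functional list the called genes were named, of marker lists up to 3, with the 3 genes most like each member and the 2 nearest coding genes on each side of *Elavl2*.

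Depth was 39138010 to 45167464 counts per spleen library and 31052510 to 44270070 reads per ovary library, and counting intervals cover counting error only. Replicates are separate animals. The number 3 stands on 2 wild-type spleens in the labels, and wild-type spleen 4 is the male one of them. Library pairs within a group differed by more than sampling noise. Same-numbered wild-type and L2-fKO libraries did not deviate together throughout (correlations of -0.145, 0.0971, 0.183 and -0.310 in the spleen and 0.382, 0.211 and 0.0723 in the ovary), so the numbers were not taken as pairs. Alternatives were other tests, scalings, filters and pseudocounts, sex, a replicate block and leaving out each library.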

Additional observations from a re-analysis of the deposited data

Results flagged for a closer look

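In 46 groups of 4 spleens tested for a stray library (Dixon's criterion at 95%), 4 held one, and chance flags about 1 in 20. For *Elavl2* wild-type spleen 4, at a normalized count of 7.07, stood apart from the other wild-type spleens at 0.979 to 2.02. Leaving it out gave a log2 fold change of 5.57. The others were *Tubb3* in wild-type spleen 3 (67.5), *Shisa6* in L2-fKO spleen 4 (70.4) and *Osr1* in L2-fKO spleen 3 (19.8).

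The genotype effect, spleen minus ovary, differed between the organs on the log2 scale (limma, adjusted p below 0.05) for *Elavl2* (4.03, adjusted p = 9.20e-04) and for the deleted *Zfp36l2* (-1.66). It also differed for *Ptbp2* (-1.50), *Tubb3* (2.17), *Ddx4* (-1.85), *Shisa6* (1.68), *Acadsb* (1.18) and *Osr1* (-2.62). *Tubb3*, *Shisa6* and *Acadsb* were chosen for running with *Elavl2* across the spleens, which favours such a difference.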

How the results depend on the processing

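Of 121 alternative values for the members and the call counts, 109 kept the direction and the side of the threshold or stayed within 1.5 times the count. *Elavl2* in the spleen was called with each other test, scaling, filter and covariate that could be fitted, and leaving out 1 library at a time gave log2 fold changes of 4.47 to 5.57. It was 6.22 and no longer called (adjusted p = 0.0559) without wild-type spleens 1, 2 and 4, an alternative chosen after seeing the marker sums. *Elavl2* has under 10 reads in the wild type, so the filter of 10 counts in all libraries gave no value for it. Leaving out 1 library gave log2 fold changes of -0.15 to 0.014 for *Elavl1* in the spleen, and -0.024 to 0.091 for *Elavl1*, 0.29 to 0.66 for *Elavl2* and 0.15 to 0.48 for *Elavl3* in the ovary, and differences of -2.69 to -1.01 normalized counts for *Elavl3* in the spleen. *Elavl1* reversed to 0.16 in the spleen without wild-type spleens 1, 2 and 4, and its difference between organs to 0.21 in female libraries, with no call. For *Elavl3* in the spleen, the other tests, scalings and the block were not run, since it was below the filter.

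The spleen held 1016 called genes, 728 to 1143 with 1 library left out (728 without wild-type spleen 4) and 208 without wild-type spleens 1, 2 and 4, when fewer samples were fitted. The ovary held 177, 407 with DESeq2 on recovered reads, and 32 to 199 with 1 library left out: 46, 32 and 40 without wild-type ovaries 1, 2 and 3, and 98 without L2-fKO ovary 3. With the replicate block the ovary held 268 and the spleen 800. The cause was not tested. With the block the log2 fold change of *Elavl2* was 4.70 in the spleen (adjusted p = 0.00569) and 0.50 in the ovary (adjusted p = 0.0919), and the block changed no call of a member. In the ovary 2 of 3 numbers and in the spleen 1 of 4 correlated best between their own wild-type and L2-fKO libraries. Among the genes called in the lists, 78 of 91 alternative values kept their call and 13 lost it, with none reversed. With the block *Igf2bp1* (adjusted p = 0.0891) and *Il6* (adjusted p = 0.0624) lost theirs. Depth limits *Elavl3* in the spleen and *Elavl2* in wild-type spleens, where most libraries lie at or near the 3 reads that a count of 0 allows. Of the neuronal Hu targets 1 was called down in the spleen with sex in the fit, in males alone and without wild-type spleen 1 or L2-fKO spleen 2.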
